A study of Homo sapiens with 4 samples.

Results

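The NRF2 antioxidant and NADPH genes are 34 genes picked by name for their known roles, with earlier results of these data known, and all 34 were found among the 20263 gene IDs of the count table. RNA was sequenced from HCT116, an established human colorectal carcinoma line labelled wild type, after 24 h with the vehicle (0.1% DMSO, 2 libraries) or with 32 µM HJ-4 (2 libraries), a compound that the title of the series calls a piperine derivative. The dose is that of the sample labels and the methods; one figure legend of the study gives a lower one. The methods of the study describe biological triplicates, whereas 2 libraries per condition were analysed here. The sample labels do not say which cultures these came from, so p-values rest on library-to-library spread, and part of it may be technical. The comparison asks which genes of oxidant defence differ in HCT116 cells after HJ-4.

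NRF2, encoded by NFE2L2, is a transcription factor that KEAP1 holds in the cytoplasm and hands to the proteasome. When electrophiles or oxidants modify KEAP1, NRF2 escapes, pairs with a small MAF protein such as MAFG and binds the antioxidant response element of its target genes. Those targets make glutathione, recycle thioredoxin, supply the NADPH that both systems consume, break down haem, and conjugate, reduce or export foreign compounds.

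To show where the element lies in these genes, the RefSeq promoter windows (GRCh38.p14, 250 bases before the start site and 50 from it on) were read on both strands for TGACNNNGC, the core of the element, and for the tighter TGANTCAGC, which overlaps it where its free base is C. A window was given for 27 of the 34 genes, and not for ABCC1, ABCC3, AKR1B10, GSR, HMOX1, PRDX1 and SOD1. TGACNNNGC was found in 10 of the 27, CBR1, EPHX1, GCLM, GPX2, GSTP1, KEAP1, ME1, MGST1, PGD and TXNRD1, and in 13.3% of the 35097 windows of all genes. TGANTCAGC was found in GSTP1, ME1 and OSGIN1, and in 1.36% of all windows. Several of the 27 genes have more than 1 window, and so more than 1 chance to match. The windows below were chosen because their genes cover the glutathione, thioredoxin, NADPH and regulator roles, with OSGIN1 added as the match to TGANTCAGC alone, and have the match in capitals on the strand that carries it:
GCLM (chr1:93909446-93909474, + strand): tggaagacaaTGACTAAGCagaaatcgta
GSTP1 (chr11:67583736-67583764, + strand): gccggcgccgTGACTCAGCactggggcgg
ME1 (chr6:83431170-83431198, - strand): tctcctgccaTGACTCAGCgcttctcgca
TXNRD1 (chr12:104215670-104215698, + strand): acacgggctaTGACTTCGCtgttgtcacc
KEAP1 (chr19:10502784-10502812, + strand): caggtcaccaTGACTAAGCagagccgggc
OSGIN1 (chr16:83953131-83953159, - strand): ttcataagcgTGAGTCAGCaggggcccgt
A match is a description of the letters and no evidence of binding. A gene without a match may carry the element outside its window, so the groups below are not genes with and without the element. Of the 8 tested genes with TGACNNNGC, 7 had a positive log2 fold change (median 0.23), and of the 17 tested genes with a window and no match, 13 did (median 0.20). For TGANTCAGC the median was 0.41 over the 3 genes with it, 2 of them positive, and 0.19 over the 22 tested genes without it, 18 of them positive; 3 genes are too few to read a difference from.

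Most of these genes lay slightly higher after HJ-4, and at the adjusted threshold edgeR called none of them and DESeq2 called 8. Of the 34 genes, 32 had enough counts to be tested, and the log2 fold change was positive for 24 of them (75%), against 50.7% of the 14044 genes tested. The median log2 fold change was 0.19, against 0.00 over all genes tested. ABCC3, an exporter of conjugated organic anions, NFE2L2 itself, the redox-responsive gene OSGIN1 and the haem-degrading enzyme gene HMOX1 had the largest positive values among genes above 1 CPM. ABCC1, which exports glutathione conjugates, had the most negative value among them outside the AKR1C genes.

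By edgeR's quasi-likelihood test with Benjamini-Hochberg adjustment over all genes, 0 of the 32 passed an adjusted p of 0.05, where the background over all genes was 0.0498%. Before adjustment, 10 stood higher and 1 lower at p under 0.05, where 7.93% of all genes tested were higher and 7.93% lower. For 18 of the 32, the HJ-4 values were both above the DMSO values, where the background was 25.2%, and for 4 both were below, where it was 25.6%. DESeq2, run on the same counts, called 8 of the 32 higher and 0 lower at an adjusted p under 0.05, with backgrounds of 2.32% and 1.74%. Those 8 were NFE2L2, GCLC, TXNRD1, SRXN1, ME1, HMOX1, ABCC3 and OSGIN1. No gene of the 32 passed in edgeR when any 1 library was left out. Without DMSO replicate 2, more of the 32 had separate groups in both directions. Groups separate more easily when a condition holds 1 library, so the backgrounds above do not apply to that fit. Fold changes are HJ-4 over DMSO on TMM-scaled counts, levels of the genes are CPM, counts relative to the effective library size, and intervals are 95% intervals of the log2 fold change.

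**Figure D1:**
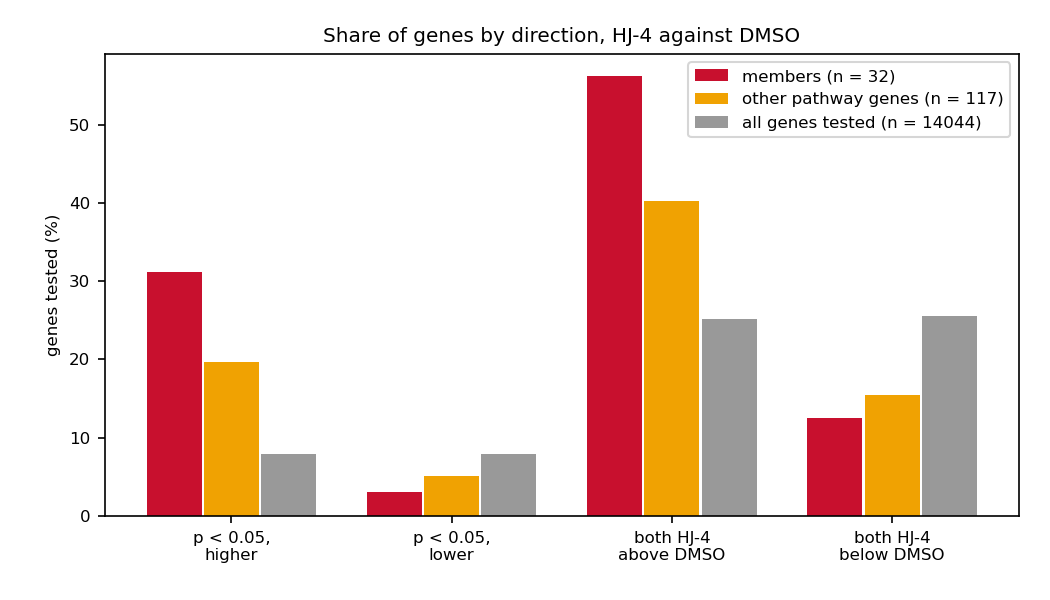
Share of tested genes (vertical axis, percent) at an unadjusted p under 0.05 in edgeR, higher or lower with HJ-4, and with the HJ-4 values all above or all below the DMSO values, for the 32 NRF2 antioxidant and NADPH genes (named members in the key), 117 other genes of the same pathways and all 14044 genes tested. At an unadjusted p under 0.05 and higher, the bars stand at 31.2%, 19.7% and 7.93%.

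The libraries held 29769568 to 34359889 counts. The mitochondrial share of counts was 6.59% and 7.73% with DMSO and 6.01% and 6.41% with HJ-4, and its part in the results was not tested. All 8 epithelial marker genes examined were detected in every library (summed level 4074 to 4986 CPM for DMSO, against 4290 and 4392 for HJ-4), although CLDN4 was at 449 CPM in DMSO replicate 1 and 24 CPM in DMSO replicate 2. Of the 5 fibroblast, 5 leukocyte and 3 endothelial markers, 4, 3 and 2 had at most 10 counts in each library. The exceptions with more counts were COL1A1, the lysosomal gene CD68, LYZ, whose highest count was 13, and VWF. The summed leukocyte markers, nearly all CD68, were at 34.5 and 40.7 CPM for DMSO against 46 and 50.3 for HJ-4, and the endothelial ones, mostly VWF, at 0.739 and 1.12 against 1.33 and 1.43. Both sums were higher with HJ-4, while the fibroblast sum overlapped (60.2 and 63.2 against 57.8 and 60.3), and the part of these markers in the results was not tested. Marker levels are relative to the total count of a library. In bulk RNA, a response of fewer cells and a smaller response of each cell cannot be told apart.

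The regulators come first. NFE2L2 was at 27.6 and 37.3 CPM with DMSO and at 74.2 and 46.5 CPM with HJ-4. Each HJ-4 value was above each DMSO value, but the DMSO libraries were 1.35-fold apart and the HJ-4 libraries 1.59-fold, the widest HJ-4 gap of the 32 genes after MAFG. Its log2 fold change was 0.90 (standard error 0.27, interval 0.20 to 1.59, adjusted p = 0.25 from edgeR), and leaving out 1 library gave 0.53 (without HJ-4 replicate 1) to 1.18 (without HJ-4 replicate 2). NFE2L2 (ENSG00000116044) lies on chromosome 2 from 177218667 to 177392756 in GENCODE version 44 on GRCh38, a span in which 38.4% of its exon bases overlap exons of other genes, HNRNPA3 and AGPS on the opposite strand among them. KEAP1, the adaptor that marks NRF2 for degradation, was at 46.4 and 33.2 CPM with DMSO and at 51.2 and 45.7 CPM with HJ-4, so the groups overlapped (log2 fold change 0.28, interval -0.19 to 0.75).

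MAFG, the small MAF partner of NRF2, could not be compared in these libraries. It was at 214 and 42.9 CPM with DMSO and at 52.1 and 209 CPM with HJ-4. DMSO replicate 1 and HJ-4 replicate 2 were both high and the others both low, a 4.98-fold gap within DMSO and a 4-fold gap within HJ-4. The interval of its log2 fold change ran from -2.37 to 2.41. No other gene of the 32 had replicates over 2-fold apart in both conditions.

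**Figure D2:**
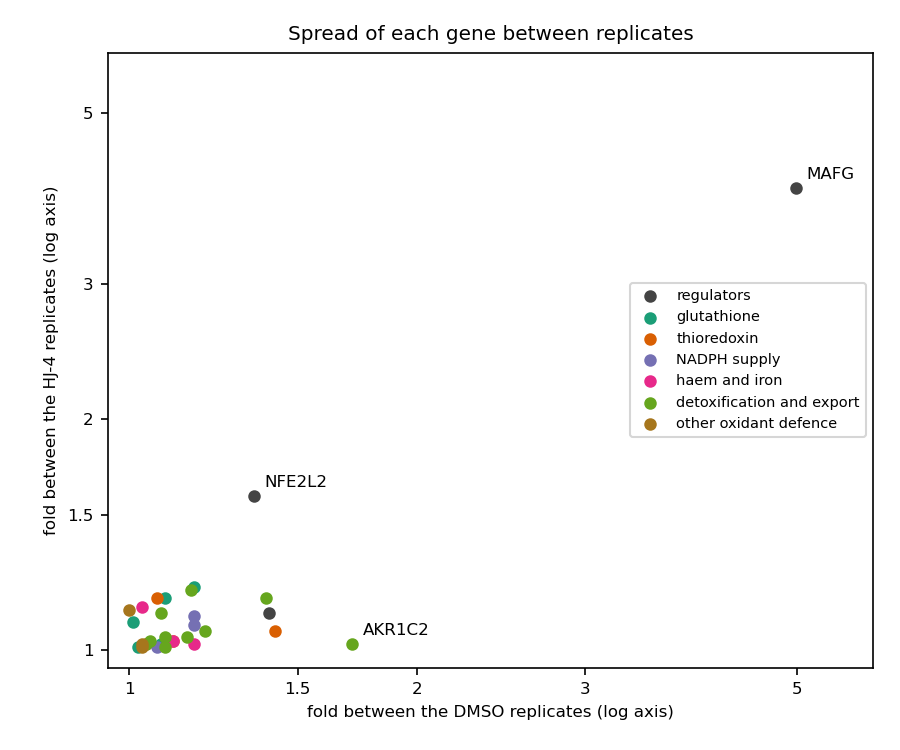
Fold between the 2 DMSO libraries (horizontal, log axis) and between the 2 HJ-4 libraries (vertical, log axis) for each of the 32 tested genes, coloured by role. MAFG stands apart at 4.98 and 4, NFE2L2 is at 1.35 and 1.59, and AKR1C2, a gene of few counts, is at 1.71 and 1.02.

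Glutathione is made in 2 steps, and the first, rate-limiting one is carried out by glutamate-cysteine ligase. GCLC, its catalytic subunit, was at 108 CPM in each DMSO library and at 150 and 137 CPM with HJ-4. Both HJ-4 values lay above the DMSO values (log2 fold change 0.41, standard error 0.09, interval 0.19 to 0.64, adjusted p = 0.17 from edgeR and 0.0067 from DESeq2). GCLM, the modifier subunit, was at 43.7 and 40.1 CPM with DMSO and at 46.7 and 39.9 CPM with HJ-4, so the groups overlapped (log2 fold change 0.05, interval -0.26 to 0.36). GCLC (ENSG00000001084) lies on chromosome 6 from 53497341 to 53616970 and GCLM (ENSG00000023909) on chromosome 1 from 93885199 to 93909456.

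GSR, which regenerates reduced glutathione with NADPH, was at 149 and 145 CPM with DMSO and at 144 and 143 CPM with HJ-4. Its HJ-4 values were the lower ones by a margin that the interval of -0.23 to 0.16 does not separate from 0. MGST1, a membrane-bound glutathione transferase that also reduces lipid peroxides, was at 34.9 and 32.4 CPM with DMSO and at 43.1 and 42.1 CPM with HJ-4 (log2 fold change 0.34, interval 0.09 to 0.59, adjusted p = 0.24 from edgeR). Cytosolic GSTP1, which conjugates glutathione to electrophiles, was at 455 and 391 CPM with DMSO and at 376 and 453 CPM with HJ-4, on both sides of each other. GPX2, the glutathione peroxidase typical of gut epithelium, had 4 and 3 counts with DMSO and 0 and 6 with HJ-4, and was too low to test. A count of 0 in that library allows a level of up to 0.0873 CPM of its total count, a limit that covers counting error only.

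In the thioredoxin system, the reductase and the repair enzyme had positive fold changes, and the carrier and the peroxidase overlapped between conditions. TXNRD1, the cytosolic thioredoxin reductase, was at 360 and 337 CPM with DMSO and at 449 and 527 CPM with HJ-4. The lowest HJ-4 value stood above the highest DMSO value (log2 fold change 0.49, standard error 0.11, interval 0.22 to 0.76, adjusted p = 0.18 from edgeR and 0.0065 from DESeq2). SRXN1, the sulfiredoxin that restores overoxidised peroxiredoxins, was at 213 and 203 CPM with DMSO and at 276 and 269 CPM with HJ-4. Its groups were apart by more than the libraries of either condition (log2 fold change 0.39, interval 0.19 to 0.58, adjusted p = 0.16 from edgeR and 0.0015 from DESeq2).

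TXNRD1 (ENSG00000198431) lies on chromosome 12 from 104215779 to 104350307, and SRXN1 (ENSG00000271303) on chromosome 20 from 646615 to 653200. A read-through gene on the same strand covers most of SRXN1, of whose exon bases 90.7% are shared; the read-through gene held 164 counts in DMSO replicate 1 and 1 in each other library, against at least 6124 for SRXN1. TXN, thioredoxin itself, was at 230 and 207 CPM with DMSO and at 213 and 208 CPM with HJ-4, with an interval of -0.28 to 0.17. PRDX1, the peroxiredoxin that thioredoxin keeps reduced, was at 741 and 522 CPM with DMSO and at 662 and 628 CPM with HJ-4, with the HJ-4 values inside the DMSO range.

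Among the genes of NADPH supply picked by name, ME1 was the only one at an unadjusted p under 0.05 in edgeR. Of 16 other tested genes of NADPH supply, outside the picked ones, 3 were higher at that threshold and 0 lower. These counts are 18.8% and 0%, against 7.93% of all genes tested in each direction. ME1, the cytosolic malic enzyme, which yields NADPH from malate, was at 70.3 and 64.0 CPM with DMSO and at 90.5 and 87.8 CPM with HJ-4. The groups did not overlap (log2 fold change 0.41, standard error 0.09, interval 0.18 to 0.64, adjusted p = 0.18 from edgeR and 0.016 from DESeq2). ME1 (ENSG00000065833) lies on chromosome 6 from 83210402 to 83431051.

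The other 3 genes of NADPH supply picked by name belong to the pentose phosphate pathway. PGD, an NADPH-yielding dehydrogenase, was at 276 and 258 CPM with DMSO and at 298 CPM or more in each HJ-4 library (interval -0.04 to 0.37). TKT, a transketolase of the non-oxidative branch, was at 848 and 723 CPM with DMSO and at 867 and 938 CPM with HJ-4 (interval -0.07 to 0.48). Both lay higher in the HJ-4 libraries with intervals that include 0. TALDO1, the transaldolase, was at 129 and 111 CPM with DMSO and at 112 and 125 CPM with HJ-4, and overlapped.

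HMOX1, haem oxygenase 1, opens the haem ring and frees iron, carbon monoxide and biliverdin. It was at 22.3 and 20.1 CPM with DMSO and at 31.6 and 30.6 CPM with HJ-4, with the groups apart (log2 fold change 0.55, standard error 0.10, interval 0.29 to 0.82, adjusted p = 0.16 from edgeR and 0.0083 from DESeq2). HMOX1 (ENSG00000100292) lies on chromosome 22 from 35380361 to 35394214. The haem transporter gene SLC48A1 was at 20.7 and 20.0 CPM with DMSO and at 24.0 and 21.0 CPM with HJ-4 (interval -0.15 to 0.44). BLVRB, a biliverdin reductase, was at 143 and 122 CPM with DMSO and at 129 and 132 CPM with HJ-4, which lie within the DMSO range.

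The exporters of the ABCC family differed in the sign of their fold change. ABCC3 was at 52.0 and 47.5 CPM with DMSO and at 90.2 and 86.7 CPM with HJ-4. It had the smallest p of the group, with a log2 fold change of 0.83 (standard error 0.09, interval 0.60 to 1.06, adjusted p = 0.079 from edgeR and 9e-10 from DESeq2). Leaving out 1 library at a time gave log2 fold changes of 0.77 to 0.90 and adjusted p-values of 0.054 to 0.37 in edgeR. ABCC3 (ENSG00000108846) lies on chromosome 17 from 50634777 to 50692253, and none of its exon bases overlap another gene of GENCODE version 44.

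ABCC2, which exports conjugates across the apical membrane, was at 38.4 and 44 CPM with DMSO and at 53.5 and 51.3 CPM with HJ-4 (log2 fold change 0.35, interval 0.07 to 0.62, adjusted p = 0.25 from edgeR). ABCC1 was at 132 and 121 CPM with DMSO and at 107 and 108 CPM with HJ-4, the reverse order (log2 fold change -0.24, interval -0.46 to -0.01, adjusted p = 0.30 from edgeR). ABCC1 was the 1 gene of the 32 that was lower at an unadjusted p under 0.05.

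**Figure D3:**
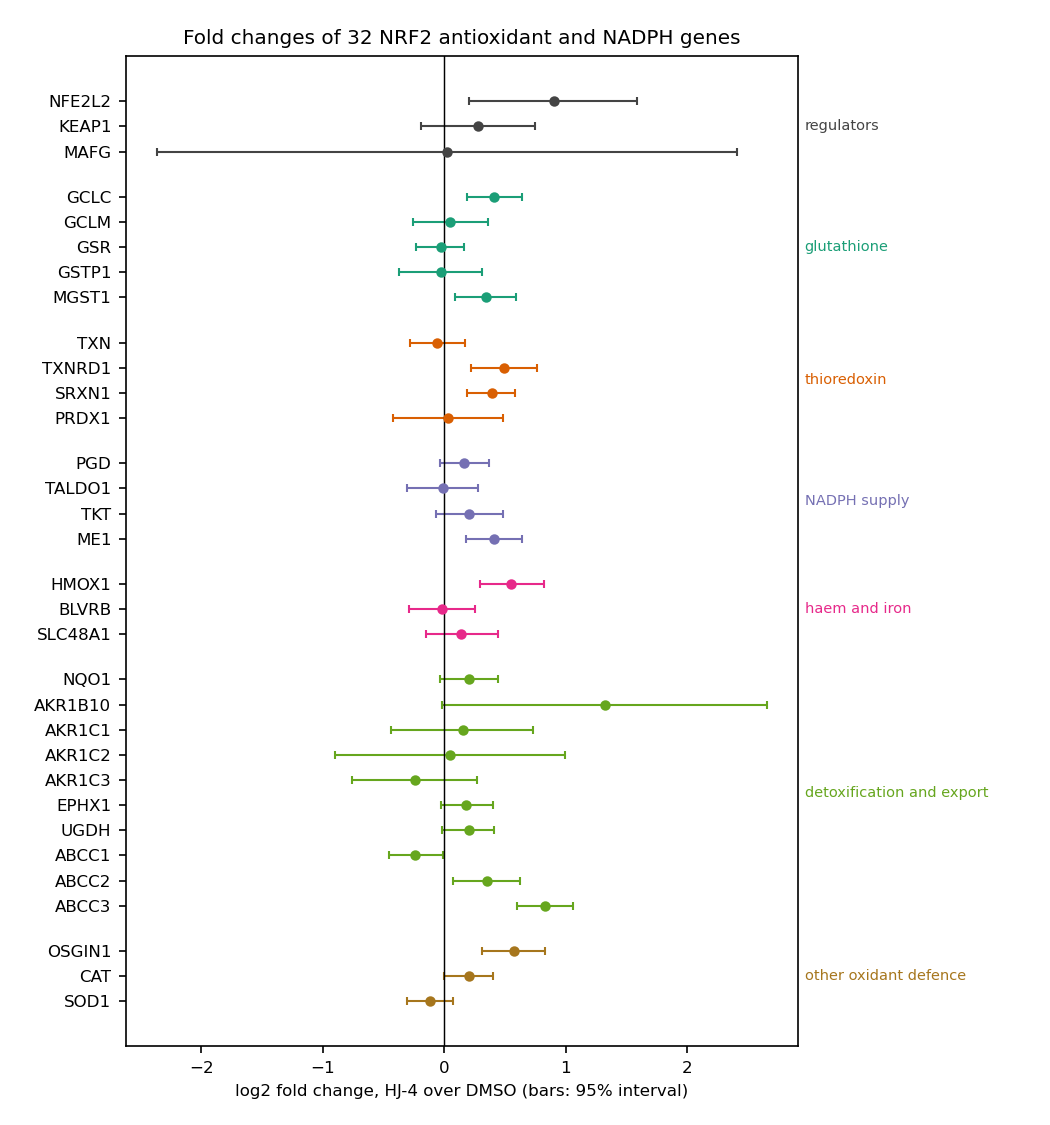
Log2 fold change, HJ-4 over DMSO (horizontal axis), of the 32 tested genes by role, with 95% intervals as bars. ABCC3 at 0.83 has an interval of 0.60 to 1.06, ABCC1 lies at -0.24, and MAFG has an interval from -2.37 to 2.41.

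NQO1, the quinone reductase often used as a marker of NRF2 activity, was at 388 and 359 CPM with DMSO and at 454 and 406 CPM with HJ-4. Both HJ-4 values were higher, but the interval of its log2 fold change of 0.20 ran from -0.04 to 0.44 (adjusted p = 0.36 from edgeR and 0.42 from DESeq2). EPHX1, which hydrolyses epoxides, and UGDH, which makes the UDP-glucuronate used for glucuronidation, were close to it in size. Their log2 fold changes were 0.18 (interval -0.03 to 0.40) and 0.20 (interval -0.02 to 0.41), with separate groups in both.

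The aldo-keto reductases reduce carbonyls and steroids. Those among the genes picked by name, AKR1B10, AKR1C1, AKR1C2 and AKR1C3, were scarce in these HCT116 libraries. AKR1B10 had 5 and 4 counts with DMSO and 13 and 12 with HJ-4, which gave a log2 fold change of 1.32 with an interval of -0.02 to 2.66. AKR1C1 had 93 to 141 counts, AKR1C2 22 to 36 and AKR1C3 89 to 110 over the 4 libraries. Their log2 fold changes were 0.15, 0.05 and -0.24, with intervals that include 0. AKR1C1 and AKR1C2 are near copies, with 96.7% identical bases where their main transcripts align and 28.5% of the 31-base stretches of AKR1C1 found in AKR1C2, so their counts may be split in error. CBR1, a carbonyl reductase, had 4 and 0 counts with DMSO and 2 and 2 with HJ-4, and was not tested.

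Of the remaining genes of oxidant defence, OSGIN1, a stress-induced growth inhibitor, was at 43.2 CPM in each DMSO library and at 60.0 and 68.1 CPM with HJ-4. The groups lay apart (log2 fold change 0.57, standard error 0.10, interval 0.31 to 0.83, adjusted p = 0.15 from edgeR and 0.0014 from DESeq2). OSGIN1 (ENSG00000140961) lies on chromosome 16 from 83931311 to 83966332. Catalase, CAT, was at 118 and 122 CPM with DMSO and at 139 and 137 CPM with HJ-4 (log2 fold change 0.20, unadjusted p = 0.050 from edgeR). SOD1, the cytosolic superoxide dismutase, was at 296 and 286 CPM with DMSO and at 266 and 270 CPM with HJ-4, with lower HJ-4 values and an interval of -0.31 to 0.07.

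**Figure D4:**
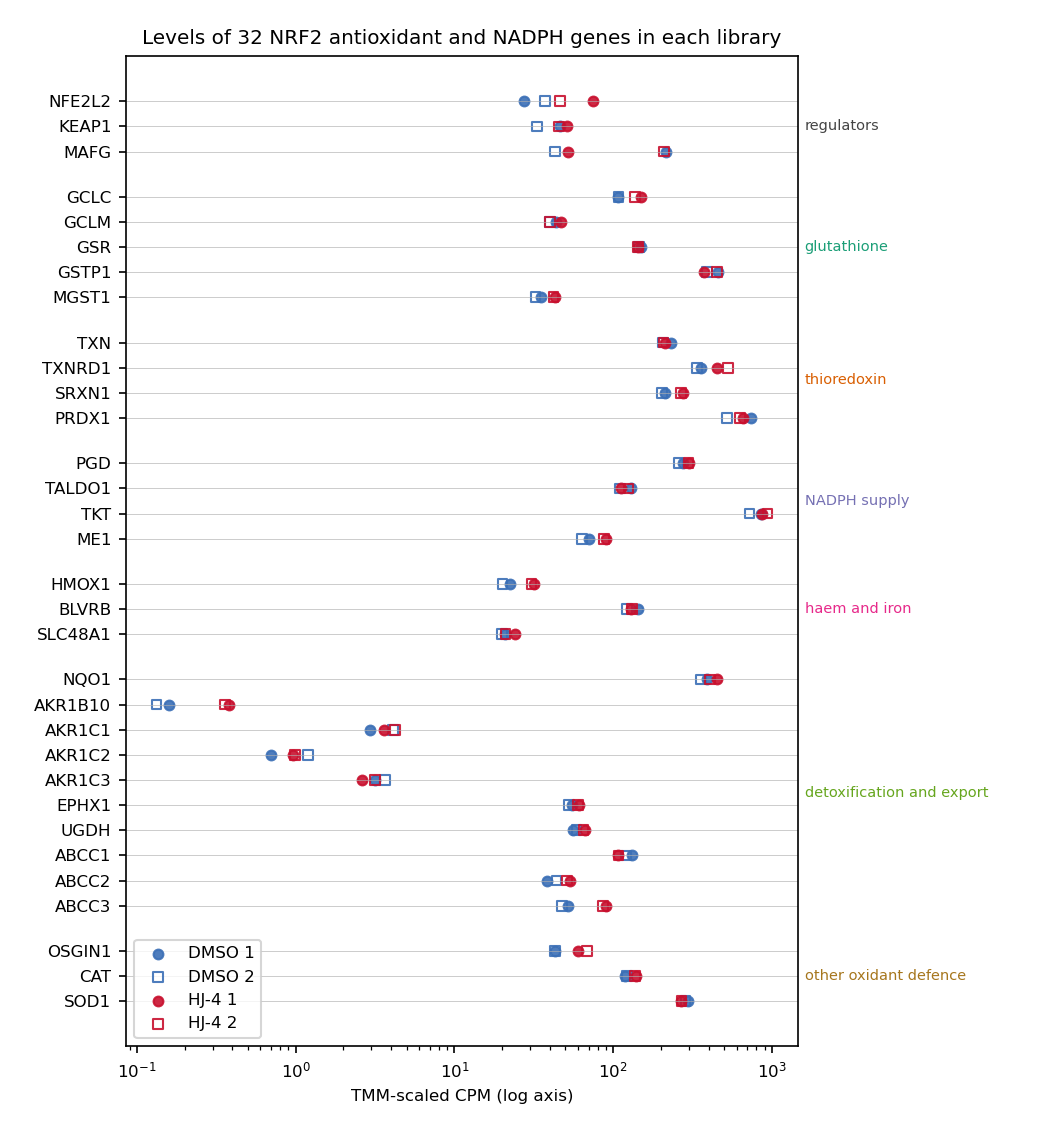
Level of each of the 32 tested genes in each library (horizontal, TMM-scaled CPM on a log axis), grouped by role. Blue marks are DMSO and red marks HJ-4, circles are replicate 1 and squares replicate 2; ABCC3 lies at 47.5 to 52.0 with DMSO and 86.7 to 90.2 with HJ-4, and the AKR genes lie below 5.

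Levels per transcript length (TPM, relative to the length of each gene's main transcript) spanned a wide range over the 34 genes. PRDX1 was the most abundant in each library, at 1107 to 1546 TPM, followed by GSTP1 at 1014 to 1212 TPM, whose range overlaps it. SOD1 at 593 to 651 TPM, TXN at 554 to 616 TPM and TKT at 483 to 616 TPM came next, with overlapping ranges. ABCC3 and HMOX1, among the largest positive log2 fold changes, were low in level, at 16.7 to 31.7 TPM and 25.9 to 40.7 TPM. Summed over the 34 genes, the level was 6839 and 5908 TPM with DMSO and 6666 and 6771 TPM with HJ-4, so the sum overlapped between conditions. By role, the sums of NADPH supply (1053 and 933 TPM with DMSO, 1085 and 1131 TPM with HJ-4) and of detoxification and export (484 and 466 TPM against 568 and 519 TPM) were separate and higher with HJ-4. The sum of the 3 other oxidant defence genes was separate and lower (797 and 791 TPM against 779 and 780 TPM). SOD1 was its largest part (651 and 640 TPM with DMSO, 595 and 593 TPM with HJ-4), while CAT and OSGIN1 were higher with HJ-4. The 4 other role sums overlapped.

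A wider list of 128 genes of the same pathways outside the 34 was read from the same fit, and 117 were tested. Their median log2 fold change was 0.08, and 77 had a positive value. None passed in edgeR. Before adjustment, p was under 0.05 for 23 with a positive and 6 with a negative value, which is 19.7% and 5.13% of the list against 7.93% of all genes each way. The counts of 23 and 6 both fell when either HJ-4 replicate was left out. The 7.93% belongs to all 4 libraries and is no background for those fits. The DESeq2 calls were 11 higher and 2 lower, where the backgrounds were 2.32% and 1.74%.

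The excess was not alike in all roles of that list. Of its 22 tested genes of detoxification and export, 2 were higher and 2 lower before adjustment. That is 9.09% each way, near the 7.93% of all genes. Of its 30 tested genes of glutathione supply and use, 8 were higher and 1 lower, which is 26.7% and 3.33% against the same 7.93%. SLC7A11, the cystine carrier that feeds glutathione synthesis, was at 115 and 108 CPM with DMSO and at 317 and 278 CPM with HJ-4 (adjusted p = 0.057 from edgeR, and 0.045 with no filter on low counts). Its heavy chain SLC3A2 was at 183 and 149 CPM with DMSO and at 303 and 278 CPM with HJ-4. For both, the HJ-4 values stood clear of the DMSO values. The glutathione peroxidase genes GPX1 and GPX8 stood at a log2 fold change of 0.76 and 0.54, and GSS, which completes glutathione, at 0.29 (edgeR adjusted p = 0.17, 0.16 and 0.27). Another gene on the same strand overlaps 39.9% of the exon bases of GPX1.

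SESN2, a stress-induced sestrin, and MTHFD2, a mitochondrial folate dehydrogenase, stood at a log2 fold change of 1.12 and 0.53 (edgeR adjusted p = 0.086 and 0.13). The metallothionein genes MT1E and MT1X, which bind zinc and copper, had 0.56 and 0.39, and the ferritin chains FTH1 and FTL, which store iron, 0.36 and 0.30. BEST1 on the opposite strand overlaps 63.2% of the exon bases of FTH1. For the wider regulators, SQSTM1, whose protein p62 competes for KEAP1, had a log2 fold change of 0.47, BACH1, a repressor that competes for the same element, 0.25, and its relative BACH2 -0.59 (edgeR adjusted p = 0.16, 0.42 and 0.17). TXNDC17, a small thioredoxin-like protein, had -0.55.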

How the data were processed

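RNA of HCT116 cells was measured in 2 DMSO and 2 HJ-4 libraries. A single table of unnormalized counts was deposited, in which each value is the whole number of reads given to an Ensembl gene ID. The methods of the study name FastQC, Trimmomatic, STAR on GRCh38 and featureCounts, while the processing notes in the labels list HISAT2, bedtools and RSEM. Which of these tools counted the reads, with what annotation and strand setting, remains unknown here, and genes that overlap on opposite strands may share reads. Library names in the labels tied columns to samples. Symbols and coordinates come from GENCODE version 44 (GRCh38), which matched 20148 of 20263 IDs, and promoter sequences from RefSeq (GRCh38.p14).

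Genes kept by filterByExpr (14044) were scaled by TMM and tested in edgeR 4.0.16 under R 4.3.3, where the model held condition alone. Standard errors and 95% intervals were derived from the F statistic and its degrees of freedom. DESeq2 1.42.0 and limma-voom 3.58.1, other scalings and filters, a replicate block and leaving out each library were alternatives. On simulated counts of 14044 genes, edgeR found 72 of 100 genes given an absolute log2 change of 1, found 97 of 100 given 2, and made 35 false calls. DESeq2 found 78 and 96 of the same genes and made 59 false calls. The simulated spread was the one that edgeR estimated from these libraries, so recovery in the real counts may differ. No absolute log2 change under 1 was simulated, so recovery at the size of most fold changes reported above was not measured.

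The genes, the wider pathway list and the roles were chosen with earlier results of these data known. Every one of the 34 genes is named. From the wider list, the 12 tested genes with the smallest unadjusted p are named, with GSS, SLC7A11, FTL, FTH1, BACH1 and SQSTM1 whatever their p; 1 other gene that this rule names is not reported here. SOD2 of that list had no match by symbol and was not used here.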

Additional observations from a re-analysis of the deposited data

How the results depend on the processing

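The number of genes called by edgeR over all genes was 7, and it was 12 with no filter, 31 with a replicate block, 570 by DESeq2, and 0 to 88 when 1 library was left out (88 and 34 without DMSO replicate 1 and 2, 0 without either HJ-4 replicate). Of the 34 genes, 8 were called by DESeq2 and 0 under each other alternative run. The number lower at an unadjusted p under 0.05 was 0 with a replicate block and 0 to 2 without 1 library, the number higher 7 to 13, the number with separate groups 4 to 10 (HJ-4 below) and 20 to 24 (HJ-4 above), and the median log2 fold change 0.15 to 0.23 without 1 library. In the wider list, 9 to 25 were higher and 3 to 9 lower at an unadjusted p under 0.05 without 1 library. Equal replicate numbers share only a number: the deviations of replicate 1 from its group mean correlated at -0.0429 over 14044 genes, so the block is no paired design. Among the wider list, SLC7A11 passed with the block (adjusted p = 0.015), with no filter and in limma-voom (0.045 each) and in DESeq2 (1.4e-27), which also called the other 12 genes of that list counted in the report. Without DMSO replicate 1, SLC7A11 (0.035), SESN2 (0.034), SLC3A2 (0.050) and GPX1 (0.046) passed in edgeR. Of 348 values of single genes of the 32 under the alternatives, 325 kept their direction and side of the threshold, 8 passed it (DESeq2) and 15 turned sign: MAFG was at -0.01 with total counts. Without 1 library the ranges of those that turned were -1.30 to 1.60 for MAFG, -0.06 to 0.15 for GCLM, -0.18 to 0.11 for GSTP1, -0.13 to 0.02 for TXN, -0.20 to 0.30 for PRDX1, -0.13 to 0.10 for TALDO1 and BLVRB, -0.07 to 0.40 for AKR1C1 and -0.29 to 0.48 for AKR1C2. Leaving out a library left 1 in its condition, which was taken to vary like the other condition. The cause of these shifts was not tested. For the fits without 1 library, no share of all genes at an unadjusted p under 0.05 or with separate groups is given. The counts of such genes from those fits, in either list, therefore do not show whether an excess over all genes held. Only 28 of the genes could be tested at a mean of at least 5 CPM. With 2 libraries per condition, a missed threshold does not show that a gene was alike in both conditions.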

Other observations

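The ratios of some partner genes lay apart between the conditions, in pairs chosen after their values were seen. The log2 ratio of GCLC to GCLM, the catalytic and modifier subunits of glutamate-cysteine ligase, was 1.30 and 1.43 with DMSO and 1.69 and 1.78 with HJ-4. That of the reductase gene TXNRD1 to its substrate gene TXN was 0.64 and 0.70 with DMSO and 1.08 and 1.34 with HJ-4. That of the exporter genes ABCC3 to ABCC1 was -1.34 and -1.35 with DMSO and -0.24 and -0.32 with HJ-4. In each pair both HJ-4 values lay above both DMSO values. The exact two-sided permutation p was 0.333 for each, which is the smallest that 2 against 2 libraries allow.

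MAFG is 1 of 66 genes, 0.59% of the 11182 genes that averaged 5 CPM or more, whose replicates lay over 2-fold apart in both conditions. In 16 of the 66, MAFG included, DMSO replicate 1 and HJ-4 replicate 2 were the high libraries.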
